A study of Caenorhabditis elegans with 4 samples.

Results

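Chromosome IV of the nematode *Caenorhabditis elegans* carried 296 of the 1702 regions in which the transcription factor LSY-2 was called bound by chromatin immunoprecipitation and sequencing (ChIP-seq). The regions were taken by their chromosome alone, from the list that combines both ChIP samples, and the rule used no strength beyond the authors' calls. The rule was chosen with earlier results of these data known. The study comprised 2 ChIP samples and 2 input samples of strain OP240, all of them hermaphrodites at the second larval stage (L2) raised at 20 degrees C. All 4 samples share the unc119(ed3) allele and the bombarded transgene wgIs240, which joins lsy-2 to TY1, EGFP and FLAG tags and carries unc119, in worms outcrossed 3 times. Per the labels' protocols, the larvae were fixed in 2% formaldehyde and sonicated, a goat anti-GFP antibody pulled down the tagged protein with its DNA, and some lysate was set aside as input. Per the labels, the fusion protein follows the expression pattern of lsy-2. The labels give no number of transgene copies, no sample of worms without the tag is among the 4, and whether replicates are separate cultures is not stated in the labels. Whole larvae were used, so strong binding in few cells and weak binding in many cannot be told apart.

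LSY-2 is a C2H2 zinc finger protein best known from the ASE taste neurons, whose left and right cells differ in gene expression, and it is needed on the left side for expression of the microRNA gene lsy-6. Chromosome IV is known for broad stretches of piRNA (21U-RNA) genes, each with a short upstream motif, and like the other autosomes it has a gene-dense centre and repeat-rich arms. No gene names are attached to the regions here, because the gene table at hand is of another genome build than the lists, so positions are given in WormBase build WS180 and stand on their own.

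On chromosome IV the 296 combined regions summed to 167 kb, the 207 of replicate 1 to 109 kb and the 143 of replicate 2 to 71.7 kb. The combined regions were 196 to 2657 bp wide, with a median of 452 bp. Each region has a q-value, the false discovery rate that the authors' peak caller gave it, and a larger −log10 q marks a stronger call within its list. On chromosome IV the combined −log10 q ran from 3.64 to 229, with a median of 8.26. The range was 3.72 to 210 in replicate 1, and 3.77 to 165 in replicate 2. The lists hold no read counts. Depth is therefore unknown and single q-values have no error, and since q also moves with depth, values of different lists are not binding on one scale.

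The strongest LSY-2 region of chromosome IV lay at 4748305 to 4750793, was 2489 bp wide and had a combined −log10 q of 229. Replicate 1 called it as 1 region of 2424 bp with a −log10 q of 210. Replicate 2 called it as 2 regions, 4748380 to 4749019 with a −log10 q of 14.8 and 4749573 to 4750828 with 165, and left 553 bp between them uncalled. The right part therefore held the stronger call of replicate 2, though the left part was also above that list's chromosome IV median of 7.83.

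That region closed a cluster of 6 combined regions, all called in both replicate lists, with 17116 bp between the third and the fourth. The first 3 of them, at 4720532 to 4720899, 4725210 to 4725846 and 4727829 to 4728275, had combined −log10 q values of 44.7, 84.0 and 56.9. In replicate 1 the same 3 had 39.7, 69.1 and 49.3, and in replicate 2 they had 26.3, 44.4 and 36.0, so the middle one was strongest in each list. The next 2, at 4745392 to 4746019 and 4747425 to 4747956, had replicate 1 values of 34.1 and 7.46 and replicate 2 values of 15.8 and 4.20. The second of these ended 348 bp before the strongest region began. Of the 7 combined regions within 50 kb of the strongest one, itself included, 6 were called in both replicate lists. The exception, at 4799111 to 4799452 with a −log10 q of 9.32, was called in neither. For comparison, 45.6% of the combined regions of chromosome IV and 40.7% of those of all chromosomes were in both lists. Every combined region of chromosome IV above 12.5 was in both, and most of the 6 were above that value. The count thus goes with strength and is no result about this stretch.

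The 12 strongest regions called in both replicate lists had combined −log10 q values from 96.9 to 229, with a median of 126, and the next region on the chromosome had 85.5. All 12 were among the strongest 171 of the 1702 combined regions of the genome, which follows from their choice by combined q. That group held 32 regions of chromosome IV (10.8% of its regions, 95% exact interval 7.51 to 14.9%) and 9.89% of the regions of the other 5 chromosomes. The 12 were wide, 538 to 2657 bp with a median of 1228 bp, against a median of 450 bp for the other 284 regions of the chromosome. Width and q were set by the same caller, so this width is not separate from the choice by q. Replicate 1 gave every one of the 12 the larger −log10 q, by a ratio of 1.11 to 1.60 to replicate 2, with the stronger part taken where replicate 2 split a region. Replicate 1 also had the larger value in 90.5% of overlapping replicate pairs on chromosome IV and 89.8% on all chromosomes. The count is thus no result about the 12.

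The region at 1093776 to 1095082 came second with a −log10 q of 189, and had 170 in replicate 1 and 149 in replicate 2. The third, at 3049846 to 3051187, had a combined value of 183, with 140 in replicate 1 and 111 in replicate 2. It stood alone, with no other combined region within 50 kb of its edges. The fourth, at 654321 to 655498, had nearly the same −log10 q in the combined list (170) as in replicate 1 (169), and 152 in replicate 2. The fifth, at 8430697 to 8433353, was the widest region of the chromosome and the only one of the 12 in the central part of its span. Its combined −log10 q was 168, with 111 in replicate 1 and 86.7 in replicate 2.

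**Figure D1:**
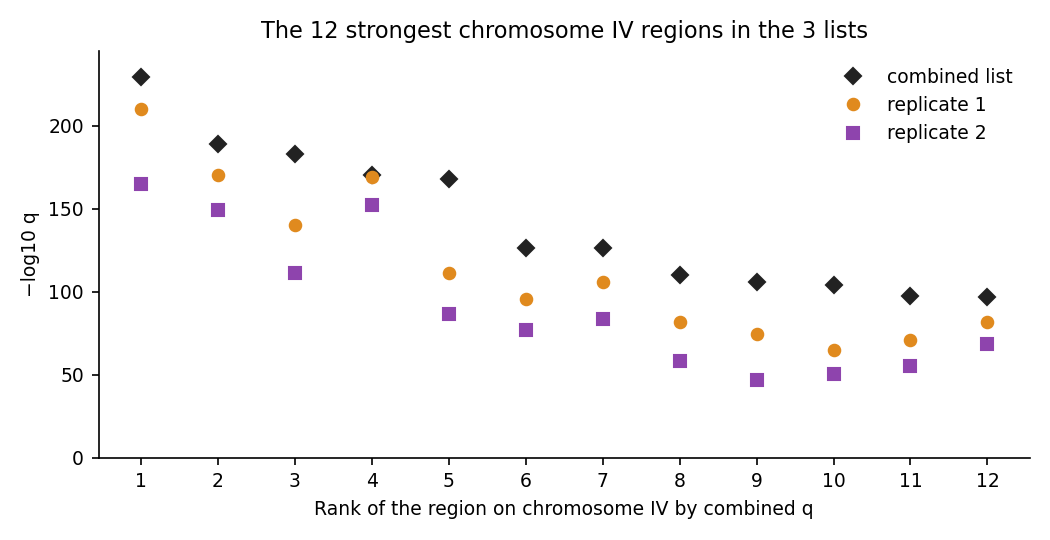
−log10 q of the 12 strongest chromosome IV regions called in both replicate lists, in rank order (horizontal axis) with the value in the combined list (black diamonds), replicate 1 (orange circles) and replicate 2 (purple squares); where a replicate split a region, its stronger part is shown. Every region has its lowest value in replicate 2, from 46.7 to 165, and the gap between the combined and replicate 1 values is smallest at rank 4.

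The remaining 7 lay in the right part of the chromosome, except for the region at 4445617 to 4446269, with a combined −log10 q of 110, and with 81.6 in replicate 1 and 58.0 in replicate 2. The region at 11566033 to 11566570 was the narrowest of the 12, at 538 bp, with a combined −log10 q of 126, a replicate 1 value of 95.5 and a replicate 2 value of 77.0. Narrow limits thus went with a strong call there. A pair of strong regions lay 17.3 kb apart at 12371123 to 12372399 and 12389692 to 12391725, with combined values of 126 and 96.9, replicate 1 values of 106 and 82.0, and replicate 2 values of 83.8 and 68.4. In the second of the pair the combined call was 2034 bp wide, while replicate 1 called 815 bp and replicate 2 called 508 bp, both at its right end. The last 3, at 13881361, 14824431 and 15570587, had combined values of 97.4, 106 and 104, replicate 1 values of 70.8, 74.7 and 65.1, and replicate 2 values of 55.1, 46.7 and 50.4. Their similar combined values go with their ranks of 11, 9 and 10 by combined q, by which they were chosen.

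Nearly every replicate 2 region of chromosome IV was also a replicate 1 region. An overlap of 1 bp or more counted as shared. Of the 143 replicate 2 regions, 136 overlapped a replicate 1 region (95.1%, 95% exact interval 90.2 to 98.0%), where the share over all chromosomes was 94.2%. Of the 207 replicate 1 regions, 136 overlapped a replicate 2 region (65.7%, 58.8 to 72.1%), where the share over all chromosomes was 64.0%. Both shares are close to the background of the series, and so are no result about chromosome IV. Intervals here and below treat regions as independent and cover counting error only.

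Recovery followed strength within each list. All of the strongest 52 replicate 1 regions, down to a −log10 q of 15.9, were called in replicate 2 (100%, 95% exact interval 93.2 to 100%). Of the next 52, 90.4% were (79.0 to 96.8%), of the 52 after those 48.1% (34.0 to 62.4%), and of the weakest 51 only 23.5% (12.8 to 37.5%). In replicate 2, all of the strongest 108 regions had a replicate 1 partner, and the 7 without one were among the weakest 35, with a −log10 q of 4.50 or less. No unshared region was thus among the strongest 52 of replicate 1 or the strongest 108 of replicate 2. These steps were not computed for the other chromosomes, so the order is no result about chromosome IV.

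Of the 296 combined regions, 135 were called in both replicate lists (45.6%, 95% exact interval 39.8 to 51.5%) and 92 in neither (31.1%, 25.9 to 36.7%). A further 63 were found only in replicate 1 (21.3%, 16.8 to 26.4%), and 6 only in replicate 2 (2.03%, 0.747 to 4.36%). Over all chromosomes 40.7% of combined regions were in both lists, 34.9% in neither, 22.0% only in replicate 1 and 2.35% only in replicate 2. The share in both lists was 39.7% (37.1 to 42.3%) on the other 5 chromosomes together, from 31.3% on chromosome I to 46.1% on chromosome II. The share in neither was 35.7% (33.2 to 38.3%) on the other 5, from 29.3% on chromosome II to 47.3% on chromosome I. Chromosome IV lay within the range of the others in both shares. Regions of a chromosome share the same libraries and are not replicates, so no test between chromosomes was made and nothing here is called particular to chromosome IV.

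**Figure D2:**
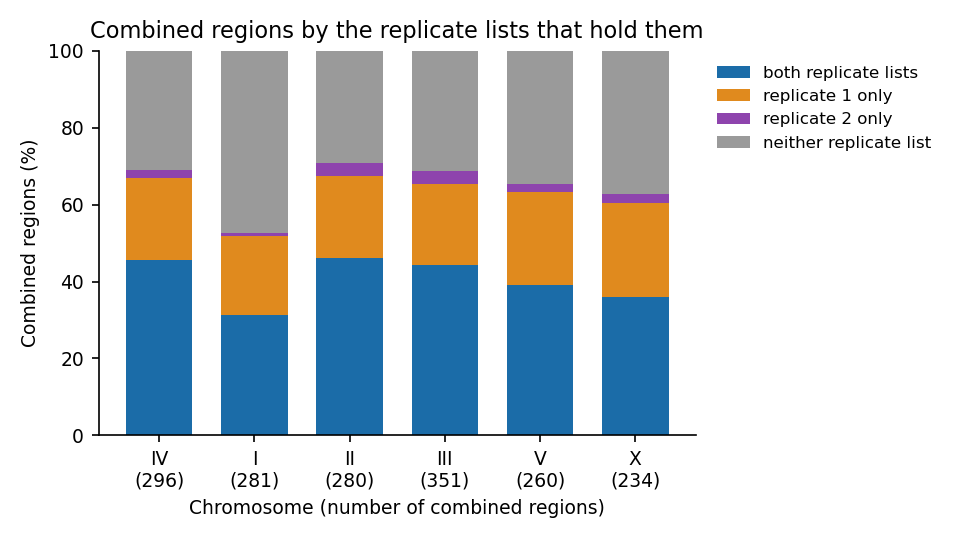
Share of combined regions (vertical axis, %) on each chromosome that were also called in both replicate lists (blue), replicate 1 only (orange), replicate 2 only (purple) or neither (grey), with the number of combined regions under each bar. Chromosome IV has 45.6% in both and 31.1% in neither, close to II and III, and chromosome I has the largest share in neither at 47.3%.

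The classes were ordered by strength, with some overlap. Regions of both lists had −log10 q values of 6.80 to 229 (median 19.7) and a median width of 532 bp, those of replicate 1 only 3.71 to 12.5 (median 7.09) and 391 bp, and those of neither 3.64 to 9.93 (median 4.79) and 396 bp. The 105 strongest regions of the chromosome, all those above 12.5, were called in both lists. Below that value the classes overlapped: 42 regions missing from at least 1 replicate list were stronger in the combined list than the weakest region of both lists. The combined list draws on the same ChIP samples as the replicate lists, so the order by class is a description and not separate evidence.

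Some regions stood at the upper edge of their class. The strongest region of replicate 1 only, at 6838948 to 6839497, had a combined −log10 q of 12.5, and 5.23 in replicate 1. The strongest of replicate 2 only, at 15049312 to 15049918, had a combined value of 10.7, and 3.91 in replicate 2. The strongest region of neither list, at 2032982 to 2033393, had 9.93. All 3 therefore ranked in the upper 123 of the 296 regions while being weak or uncalled in the single lists. The 6 regions of replicate 2 only had replicate 2 values of 3.81 to 4.50 and lay in all parts of the chromosome.

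Replicates ranked their shared regions in a similar order. Across 137 overlapping pairs, Spearman's rho between their −log10 q values was 0.880 and Pearson's r was 0.888. Pearson's r was 0.986 and rho was 0.895 over the 133 pairs in which each region had a single partner, which leaves out the split strongest region. Over the 119 pairs with a replicate 1 −log10 q under 50, rho was 0.824 and Pearson's r was 0.888. These correlations are across regions of the same 2 libraries. They are given without a p-value. The −log10 q was larger in replicate 1 in 124 of 137 pairs (90.5%), with a median ratio of 1.33, and in 89.7% of 572 pairs on the other 5 chromosomes, with a median ratio of 1.41. Because q moves with depth and depth is unknown, what this ratio reflects cannot be told here and was not tested.

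**Figure D3:**
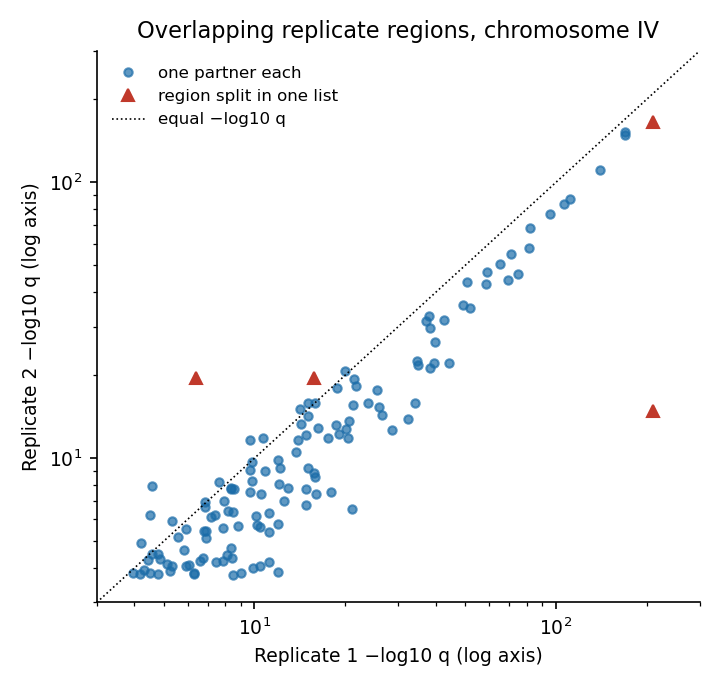
−log10 q of overlapping regions on chromosome IV in replicate 1 (horizontal log axis) and replicate 2 (vertical log axis), with blue circles for 133 pairs of 1 partner each and red triangles for 4 pairs in which a list split a region; the dotted line marks equal values. Most points, 124 of 137, lie below the line, and the triangle at 210 and 14.8 is the left part of the strongest region.

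The pairs that departed most from this order were few. Among the 84 pairs with a −log10 q of at least 10 in either list, the highest ratios of single-partner pairs were at 2177541 to 2177968 in replicate 1, with 21.1 in replicate 1 and 6.57 in replicate 2, and at 657910 to 658298, with a ratio of 3.10 and a replicate 2 value of 3.87. The lowest of them was at 4184788 to 4185001, with 9.65 in replicate 1 and 11.6 in replicate 2. Among the same 84 pairs, lower ratios were found only in the other split region, where replicate 1 called 3384576 to 3385050 (15.8) and 3385316 to 3385671 (6.39) and replicate 2 called 3384596 to 3385621 (19.6) as 1. The combined list joined both parts into 1 region of 1216 bp with a −log10 q of 36.6.

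Called limits lay close together in most overlapping pairs. Pairs were formed by overlap, which by itself keeps midpoints near, and replicate regions without a partner are not covered. The midpoints of the 137 pairs were a median of 23.5 bp and at most 865 bp apart, and 122 pairs (89.1%) had midpoints within 100 bp. Starts differed by a median of 31.0 bp and ends by 39.0 bp, and no pair had the same start and end. The replicate 1 region was the wider one in 98 of 137 pairs, with a median width of 442 bp against 413 bp in replicate 2, and it enclosed the replicate 2 region in 60 pairs, while the reverse held in 20. Each replicate region with a combined partner overlapped exactly 1 combined region.

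Most calls had a larger −log10 q in the combined list. Of the 135 regions of both lists, 134 had a larger −log10 q in the combined list than in either replicate, with a median ratio of 1.57 to the stronger replicate. On the other 5 chromosomes that median ratio was 1.60. The exception, at 6336595 to 6337208, had a combined value of 7.23, with 8.48 in replicate 1 and 3.77 in replicate 2. The highest ratio, 2.44, was at 192005 to 192454, where the combined value was 16.8 and the replicates had 6.86 (replicate 1) and 6.67 (replicate 2). Of the 63 regions of replicate 1 only, 58 had a larger −log10 q in the combined list than in replicate 1. The combined list draws on the same ChIP samples as the replicate lists, so these ratios describe the lists and not the binding.

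Width and strength went together across the 296 regions, with a Spearman rho of 0.44. Both were set by the same caller. The 3 widest regions were those at 8430697 (2657 bp), 4748305 (2489 bp) and 14032556 to 14034616 (2061 bp, combined −log10 q 85.2, replicate 1 51.8, replicate 2 35.0). Wide regions were not all strong. The region at 3232739 to 3234771 was 2033 bp wide with a −log10 q of 10.1, and it was called in replicate 1, with 6.19, but not in replicate 2.

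LSY-2 regions were denser on the left side of chromosome IV than on the right. The span covered by regions of any list, 126118 to 17281759, was cut into 3 equal parts. The left part held 120 combined regions (40.5%, 95% exact interval 34.9 to 46.4%), the central part 102 (34.5%, 29.1 to 40.2%) and the right part 74 (25.0%, 20.2 to 30.3%), or 21.0, 17.8 and 12.9 regions per Mb. Replicate 1 had 85, 70 and 52 regions in the same order and replicate 2 had 61, 43 and 39. Each of the 3 lists thus had its highest count on the left and its lowest on the right.

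**Figure D4:**
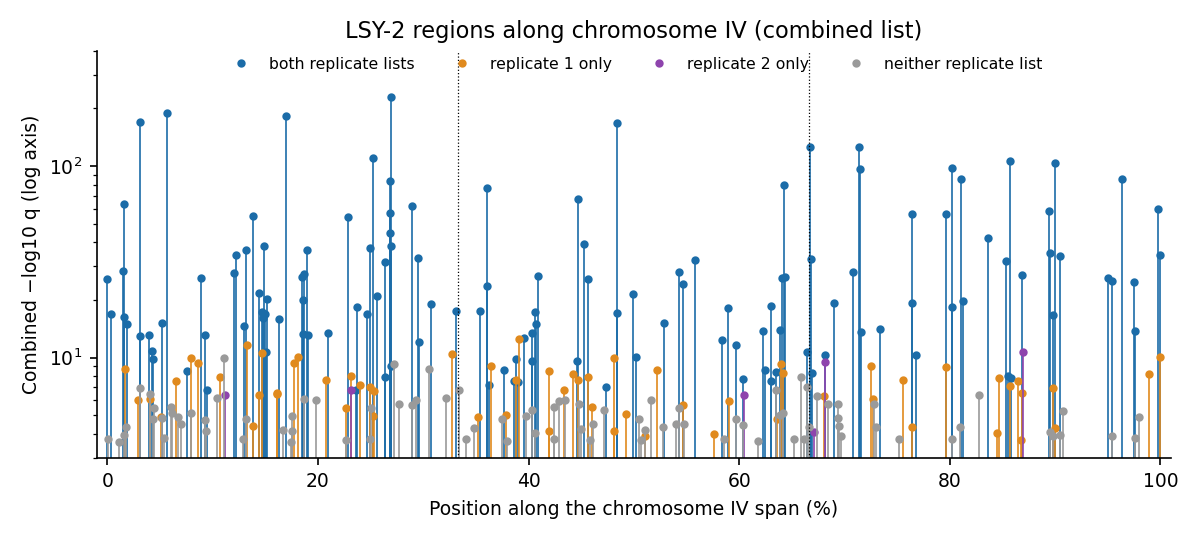
Combined −log10 q (vertical log axis) of each of the 296 regions against its position along the chromosome IV span (horizontal axis, %), coloured by the replicate lists that hold it, with dotted lines between the 3 equal parts. The left part holds 120 regions and the right part 74, and regions above 100 occur in all 3 parts.

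The lower count on the right went with a slightly lower median −log10 q than on the left in the combined list. In each replicate list the right part had a higher median than the left. The median −log10 q was 9.39 in the left part, 7.36 in the central part and 8.97 in the right part of the combined list, and 9.65, 5.40 and 11.0 in replicate 1. In replicate 2 the medians were 7.95, 6.20 and 11.8. The centre had the lowest median in each list. Of the 12 strongest regions, 5 lay in the left part, 1 in the central part and 6 in the right part. The share called in both replicate lists was 48.3% on the left (39.1 to 57.6%), 40.2% in the centre (30.6 to 50.4%) and 48.6% on the right (36.9 to 60.6%), with intervals that overlap.

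On none of the other 5 chromosomes was the left part the fullest in the combined list, but on X it was the fullest in both replicate lists. An uneven spread was not limited to chromosome IV. On chromosome II the right part was the fullest in each list, with 40.4% (combined), 42.5% (replicate 1) and 43.6% (replicate 2). On X the right part held 40.2% of the combined regions. The left part held 27.8% of the 1406 regions of the other 5 (95% exact interval 25.5 to 30.2%), from 24.6% on chromosome II to 33.3% on X. In replicate 1 the left share was 41.1% on chromosome IV, and 24.9% on II to 39.9% on X, with overlapping intervals for IV and X (34.3 to 48.1% and 31.9 to 48.2%). In replicate 2 it was 42.7% on chromosome IV, and 22.0% on V to 36.3% on X. Chromosome IV had the highest left share in each list, but by a narrow margin over X in replicate 1, and these differences were not tested. The 3 lists hold largely the same regions and the same 2 libraries.

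**Figure D5:**
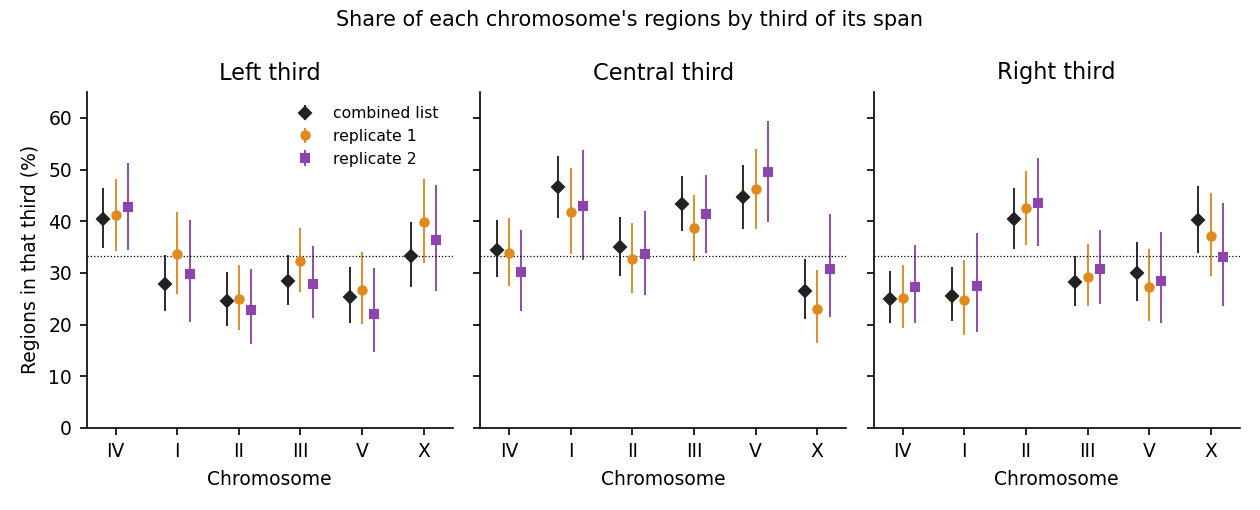
Share of each chromosome's regions (vertical axis, %) in the left, central and right part of its span, for the combined list (black diamonds), replicate 1 (orange circles) and replicate 2 (purple squares), with 95% exact intervals as bars and a dotted line at an even share. The left share of chromosome IV is 40.5%, 41.1% and 42.7% in the 3 lists, and its right share is 25.0%, 25.1% and 27.3%.

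In steps of 1 Mb the combined count ran from 4 to 27 regions, with a median of 15.5, and the last step is not a full one. The counts were highest between 4 and 5 Mb and between 11 and 12 Mb, with 27 regions each. Of these, 15 and 11 were called in both replicate lists. The share in both lists was 45.6% over chromosome IV and 40.7% over all chromosomes. The first 9 steps held 180 regions and the last 9 held 116. In replicate 1 these sums were 126 and 81, and in replicate 2 they were 85 and 58. The step between 9 and 10 Mb had 10 combined regions, fewer than any other of the first 16.

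Neighbouring regions were a median of 32.1 kb apart, but the gaps ranged from 256 bp to 718 kb. Of the 296 regions, 143 had another within 10 kb (48.3%, 95% exact interval 42.5 to 54.2%), and on the other 5 chromosomes 45.4% had one (42.8 to 48.1%). Joining neighbours under 10 kb apart left 153 single regions, 47 pairs, 15 triplets and 1 run of 4. The run of 4 lay at 385068 to 396794 and its strongest region had a −log10 q of 63.5. Triplets differed in strength: that at 4720532 to 4728275 had values of 44.7 to 84.0 with all 3 regions in both lists, and that at 4400948 to 4407396 had values of 3.77 to 7.03 with none in both.

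The densest 100 kb held 8 combined regions, and this count was reached at 11080653 to 11179608 and at 15471354 to 15571315. In each, 4 of the 8 were called in both replicate lists, 2 in replicate 1 only and 2 in neither. Over all chromosomes the shares in the same order were 40.7%, 22.0% and 34.9%, so counts this small are no result about either stretch. The first was led by a region at 11148948 to 11150105, whose combined −log10 q was 79.7, with 58.7 in replicate 1 and 42.8 in replicate 2. The second ended with the region at 15570587, of 104, and began with one at 15471354 to 15471882, whose combined value was 58.6, with 39.5 in replicate 1 and 22.2 in replicate 2. It followed directly on a gap of 421 kb.

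The longest stretches without a combined region lay in the right part. The longest, of 718 kb between 15697146 and 16415058, and the next, of 479 kb between 13298033 and 13777499, held no region of replicate 1 or replicate 2 either. Of the 295 gaps, 59 exceeded 100 kb. A stretch without a region was not called at this unknown depth, and no values on how well reads map there were used here.

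A few replicate regions of chromosome IV had no partner in the combined list. In replicate 1 these were 8 of 207 regions (3.86%, 95% exact interval 1.68 to 7.47%), where 1.82% of replicate 1 regions over all chromosomes had none and 12 of 892 on the other 5 chromosomes (1.35%, 0.697 to 2.34%). Their −log10 q was 3.75 to 4.97 and none was called in replicate 2. The strongest lay at 11062791 to 11063417, with 4.97, followed by 6792085 to 6792841, with 4.63, and 10403087 to 10403715, with 4.59. The weakest, at 3048632 to 3049063, lay 782 bp from the third strongest region of the chromosome. In replicate 2 it was 1 of 143 regions (0.699%, where the share over all chromosomes was 0.536%), at 5947749 to 5948055, with a −log10 q of 3.82. All 9 were weak calls.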

How the data were processed

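The authors deposited 3 region lists, namely replicate 1, replicate 2 and a combined one. Per the file headers, the coordinates are of WormBase build WS180, and the authors' q-value of each region (a p-value adjusted for multiple tests) came from the peak caller PeakSeq. Not given in the sources used here are the aligner, caller version, thresholds, read totals, use of the inputs and way of combining. The largest q-value on chromosome IV was 2.30e-04 (combined), 1.89e-04 (replicate 1) and 1.70e-04 (replicate 2). Input samples had no list analysed here.

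From these lists −log10 q, widths, overlaps (1 bp or more), gaps and positions were computed with Python 3.11.15, numpy 2.4.6, pandas 2.3.3 and scipy 1.17.1, and figures were drawn with matplotlib 3.10.9. Shares carry 95% exact Clopper-Pearson intervals. No p-values were computed. Samples were grouped by their titles. The free-text descriptions name ChIP DNA for inputs and were not used. The code was tested on simulated data.

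Regions named were the 12 strongest of both lists, the strongest of each other class, the 3 widest, the 3 highest and 3 lowest pair ratios, up to 6 replicate regions without a combined partner, the densest 100 kb and the 2 longest gaps. The cluster at the strongest region, the runs of neighbours, the wide weak region, the leading regions of the densest 100 kb, the weakest unpartnered region, the extreme ratios of combined to replicate values and the left-to-right order were chosen after values were seen. The rule and the region set were chosen with earlier results of these data known. No genome or annotation of build WS180 was used here, so genes and sequences are not given.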

Additional observations from a re-analysis of the deposited data

Results flagged for a closer look

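A signal outside the combined list was noted in replicate 1: 8 regions on chromosome IV had no combined region, 3.86% of 207, against 1.35% of 892 on the other 5 chromosomes. On X the share was 3.38% of 148 regions. None of the 8 was called in replicate 2, and their −log10 q of at most 4.97 put the strongest at rank 152 of 207 in its list. The difference between chromosomes was not tested.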

How the results depend on the processing

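Of 42 alternative values, 29 stayed within the 95% interval of the main share, or within 1.5 times for the ratio and the correlation, and 13 did not. The alternatives reuse the same regions, and those for the left part, the ratio and the correlation were chosen after seeing the data. The left share stayed between 40.1% and 44.4% in its 6 alternatives. Of these, the span of the combined list alone could not differ, because combined regions set both ends of the span. The same holds for the central share with that span, and both are counted among the 29. With the stronger 50% of each list, the share of combined regions in both lists was 53.0%, that of replicate 1 regions found in replicate 2 was 74.1% and the reverse 98.8%. With lists of equal length the last 2 were 87.6% and 83.9%, since replicate 1 then holds only its stronger regions. With 1 replicate list left out, the share of combined regions found in the remaining list was 47.6% to 66.9% and that not found 33.1% to 52.4%. The central share was 28.5% in the stronger 50% of the combined list, and 30.1% to 33.8% with a single replicate list. The share with a neighbour within 10 kb was 29.4% to 40.1% with a single replicate list, 29.8% in the stronger 50% and 35.5% within 5 kb, where fewer regions or shorter distances count. Chromosome IV held 17.4% of the combined list and 18.8% to 19.2% of the single lists. With chromosome I left out it held 20.8% of the combined list. That share had to rise, since only the total shrank, and it is counted among the 13. No paired analysis was possible because the ChIP replicates have no matched input values here and no test was run. At unknown depth, absence from a list means only that no call was made.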
